A study of Mus musculus with 4 samples.

Results

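The clustered core histone genes encode the H2A, H2B, H3 and H4 proteins of the nucleosome and lie in the gene clusters named Hist1, Hist2 and Hist3, with a lone H4 gene named Hist4h4. They were taken as all genes whose symbol in the deposited tables begins with Hist1 to Hist4 followed by h2a, h2b, h3 or h4, so that linker (H1) histones were left out. This gave 63 genes from 65 transcript records, of 27267 genes and 36065 records in all: 19 H2A, 19 H2B, 12 H3 and 13 H4 genes, with 49 in Hist1, 10 in Hist2, 3 in Hist3 and 1 in Hist4. Among them are Hist2h3c2-ps and Hist3h2bb-ps, which the files name as pseudogenes. RNA sequencing had been done on cardiomyocytes of CD1 mice at postnatal day 1, the contracting cells of the newborn heart, in culture. Cells were given the human microRNA mimic hsa-miR-590-3p, the human mimic hsa-miR-199a-3p, the worm mimic cel-miR-67 as a control, or transfection without a mimic (mock). The mimics were used at 50 nM in Lipofectamine RNAimax and RNA was taken at 72 h, and whether a library pooled several dishes or animals is not stated. There was 1 library per condition and 4 in all, so no difference below has a replicate check and no significance test was possible.

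Core histones package newly made DNA, and most clustered histone genes are transcribed in S phase, when DNA is copied. Their mRNAs are unusual in that they end in a conserved stem-loop, bound by the protein Slbp, in place of a poly(A) tail, while some clustered genes can also give polyadenylated transcripts in cells that have left the cycle. Variants such as H2A.Z and H3.3, encoded outside the clusters, are made throughout the cycle from ordinary polyadenylated mRNAs. A library made by poly(A) selection holds few stem-loop mRNAs; the labels name a TruSeq RNA-seq kit and do not state how RNA was selected.

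The promoters of 4 members are shown because they carry the sequence elements of this family and stand beside genes with differing levels. Hist3h2a was the most abundant H2A gene by reads, Hist2h2aa1 was among the members lowest with hsa-miR-199a-3p relative to the controls, Hist1h4i was the compared member above both controls in that library, and Hist1h2bg shares its promoter with Hist1h2ae. Each covers 250 bases before to 50 bases after the start of the gene, from RefSeq, 5′ to 3′ along the gene, with every match in capitals, on either strand, to the TATA box TATAAA, the box CCAAT or the octamer ATTTGCAT.
Hist3h2a (H2aw), GRCm38.p6 chr11:58954435-58954734, plus strand: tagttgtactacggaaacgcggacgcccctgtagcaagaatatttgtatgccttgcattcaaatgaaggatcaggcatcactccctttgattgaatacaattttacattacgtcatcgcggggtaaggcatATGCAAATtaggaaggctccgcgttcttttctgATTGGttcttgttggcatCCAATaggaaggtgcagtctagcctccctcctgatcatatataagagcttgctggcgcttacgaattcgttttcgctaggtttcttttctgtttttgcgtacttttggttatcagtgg
Hist2h2aa1 (H2ac18), GRCm38.p6 chr3:96245247-96245546, plus strand: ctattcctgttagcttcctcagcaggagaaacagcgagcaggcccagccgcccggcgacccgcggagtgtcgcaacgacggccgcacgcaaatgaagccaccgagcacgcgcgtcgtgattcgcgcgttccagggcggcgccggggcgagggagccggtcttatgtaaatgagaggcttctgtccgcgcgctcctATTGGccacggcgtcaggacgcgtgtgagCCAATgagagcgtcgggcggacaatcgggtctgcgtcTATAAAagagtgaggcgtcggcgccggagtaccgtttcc
Hist1h4i (H4c9), GRCm38.p6 chr13:22041313-22041612, minus strand: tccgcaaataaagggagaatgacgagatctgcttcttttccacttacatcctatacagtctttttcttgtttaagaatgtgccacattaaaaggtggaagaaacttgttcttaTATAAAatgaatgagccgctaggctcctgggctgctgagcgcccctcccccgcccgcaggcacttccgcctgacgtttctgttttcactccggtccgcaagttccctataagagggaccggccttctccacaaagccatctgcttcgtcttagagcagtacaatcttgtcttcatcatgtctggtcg
Hist1h2bg (H2bc8), GRCm38.p6 chr13:23571150-23571449, plus strand: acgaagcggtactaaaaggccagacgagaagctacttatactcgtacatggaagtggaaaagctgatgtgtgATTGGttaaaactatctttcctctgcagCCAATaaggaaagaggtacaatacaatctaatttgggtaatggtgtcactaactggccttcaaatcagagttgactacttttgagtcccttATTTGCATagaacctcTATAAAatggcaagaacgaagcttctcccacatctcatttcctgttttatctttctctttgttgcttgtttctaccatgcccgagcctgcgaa

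Of the 63 members, 56 matched the RefSeq promoter table, with 57 windows, since Hist1h2be has 2. CCAAT was present in all 45 windows of H2A, H2B and H3 genes and in 3 of the 12 windows of H4 genes, against 37.4% of all 32851 promoters. TATAAA was present in 31 of the 57 windows (54.4%), against 13.6% of all promoters. Matches were counted at any place in the window. The TATAAA of Hist1h4i, its only match, begins 137 bases before the start, and that of Hist2h2aa1 begins 11 bases after it. The octamer ATTTGCAT, to which the factor Pou2f1 (Oct-1) is known to bind in H2B promoters, was found in 14 of 35 H2A and H2B windows and in 0 of 22 H3 and H4 windows, against 1.74% of all promoters. Windows of neighbouring H2A and H2B genes overlap, because 10 pairs start 164 to 281 bases apart on opposite strands. An octamer, CCAAT or TATAAA between them can therefore be counted at both. In Hist1h2ae, Hist1h2bf, Hist1h2bk, Hist1h2bn and Hist1h2bp, each in such a pair, TATAAA was on the opposite strand alone. In 9 of the 10 pairs the H2B gene had more reads than its H2A partner over the 4 libraries in total reads, for example 45 at Hist1h2bg and 13 at Hist1h2ae. Most reads of these pairs were not uniquely placed and record lengths differ, and with unique reads H2B had more in 5 pairs and H2A in 3, with 2 equal. Unique reads numbered 29 at Hist1h2bg and 10 at Hist1h2ae. These letters are a description of the sequence and do not show that a factor was bound.

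Library totals were 34452240 (hsa-miR-590-3p), 38745528 (hsa-miR-199a-3p), 34255689 (cel-miR-67) and 31638930 (mock) reads, and 13502 genes whose mean reached 1 CPM (read counts scaled to library size, with TMM factors) could be compared. A count of 0 allowed at most 0.0849, 0.0745, 0.0897 and 0.0987 CPM in that order of libraries, taking 3 reads as the limit. Ribosomal RNA took 0.637%, 0.369%, 0.375% and 0.812% of reads, and 145 records of small nuclear, small nucleolar and like RNAs, which also lack a poly(A) tail, summed to 12.4, 10.7, 12.6 and 13.9 CPM. The part of these shares in the histone values was not tested. Cardiomyocyte markers such as Myh6, Tnnt2 and Actn2 were high in each library, and the summed level of 8 markers was 30792, 29974, 41986 and 45672 CPM. Each of the 8 lay below both controls under each microRNA, where 36.6% of all compared genes did with hsa-miR-590-3p and 41.9% with hsa-miR-199a-3p. Markers of fibroblasts (10221 to 11955 CPM over 9 genes), smooth muscle and pericytes (3188 to 5169 CPM over 5) and endothelium (181 to 242 CPM over 6) were also present. Leukocyte markers summed to 5.94 to 18.4 CPM over 6 genes, highest in mock, and erythroid markers to 0.283 to 0.372 CPM over 4, with 1 of these at 0 reads in each library. In such bulk samples fewer cells of a type and less RNA per cell cannot be told apart, and a histone level may come from any of these cells.

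Clustered core histone transcripts were scarce in every library. The 63 genes together had 1464 reads with hsa-miR-590-3p, 1619 with hsa-miR-199a-3p, 1787 with cel-miR-67 and 1858 in mock. No reads were found for 8, 5, 12 and 13 of the 63 genes, and Hist1h2aa had 0 in all 4. The minimum mean of 1 CPM was reached by 9 members, from Hist1h2bc at 13.5 CPM down to Hist4h4 at 1.05 CPM. The member just short of it was Hist1h2be at 0.929 CPM. The 9 held 83.2% of all reads of the family. The other 54 had between 0 and 127 reads over the 4 libraries, with a median of 11.

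Levels per length show the same scarcity beside the variants. In the authors' RPKM (reads per kilobase of record, scaled to library size) the 63 members summed to 46.8, 50.1, 57.4 and 67.0 with hsa-miR-590-3p, hsa-miR-199a-3p, cel-miR-67 and in mock. The 9 variant genes outside the clusters summed to 547, 694, 565 and 508 RPKM. For H3 alone, the 12 clustered genes summed to 4.97, 5.51, 5.68 and 5.80 RPKM, and H3f3a, which encodes the variant H3.3, stood at 195.4, 286, 283 and 238 RPKM. Among the members Hist1h2bc was highest per length, at a mean of 18.4 RPKM, followed by Hist2h2aa1 at 10.1 and Hist3h2a at 4.77 RPKM.

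Copies of a histone gene share sequence, so the uniquely placed reads are set beside the total. Over the 4 libraries 63.9% of the family's reads were placed uniquely, from 47.5% for H3 and 57.5% for H4 to 66.5% for H2A and 67.3% for H2B. Hist3h2a was nearly all unique, with 1311 of 1312 reads, as was Hist2h2be, with 431 of 439. Hist1h2bc had 1352 unique reads of 1845, and Hist2h2aa1 had 243 of 797. Hist1h2al, listed as 2 predicted records of 3480 bases, and Hist1h2be, listed as 2 records, had 0 unique reads, of 205 and 127 in total. Whether such reads are shared between records of the same gene or with other genes is not given. Low unique shares were also seen outside the family, at 0.158% for Myh6 and 0.00182% for Tnnt2. The Hist1h2al records held 34 and 16 reads with hsa-miR-590-3p, 28 and 24 with hsa-miR-199a-3p, 25 and 20 with cel-miR-67, and 30 and 28 in mock.

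Many records of the family are short. The most common record length was 393 bases for H2A (8 of 19 genes), 381 for H2B (7 of 19), 411 for H3 (4 of 12) and 312 for H4 (8 of 13), each the coding length of the histone without UTRs. These 27 genes had 337 reads over all libraries, of which 13.9% were unique. The 11 members with a record of at least 1000 bases held 45.6% of the family's reads and 72.8% of theirs were unique.

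**Figure D1:**
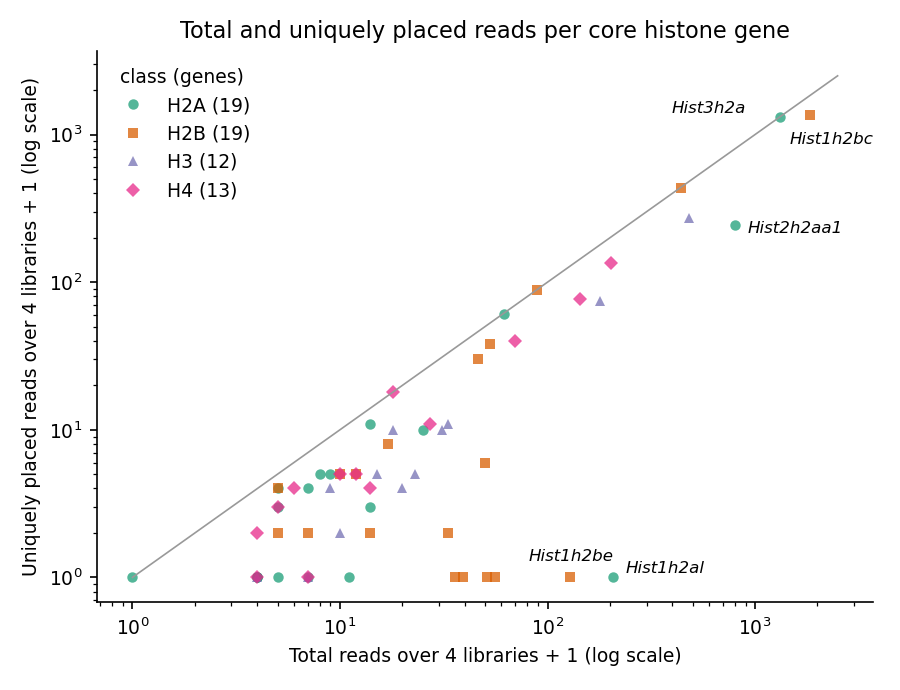
Total reads (x axis) against uniquely placed reads (y axis) of each of the 63 core histone genes, summed over the 4 libraries with 1 added, on log scales; the line marks equal values and colours give the class. Hist3h2a lies on the line with 1311 of 1312 reads unique, while Hist1h2al and Hist1h2be lie at 0 unique reads.

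These microRNAs are known for raising cardiomyocyte proliferation, and the comparison asks whether core histone transcripts differ in cells given them. The summed level of the 63 genes was lower in both microRNA libraries than in both controls, at 41.4 CPM (95% Poisson interval 39.3 to 43.6) with hsa-miR-590-3p and 40.2 CPM (38.3 to 42.2) with hsa-miR-199a-3p, against 53.4 CPM (51.0 to 56.0) with cel-miR-67 and 61.1 CPM (58.4 to 64.0) in mock. The ratio for hsa-miR-590-3p was 0.775 (95% interval 0.723 to 0.831) against cel-miR-67 and 0.677 (0.632 to 0.726) against mock. For hsa-miR-199a-3p it was 0.752 (0.703 to 0.805) and 0.657 (0.615 to 0.703). The controls differed from each other in the same sense, with a ratio of 0.874 (0.818 to 0.933) for cel-miR-67 over mock. These intervals hold counting error alone and not the spread between cultures, and PCR reads that carry no molecular identifiers cannot be taken as independent molecules. Uniquely placed reads gave 0.757 and 0.696 for hsa-miR-590-3p and 0.718 and 0.660 for hsa-miR-199a-3p. The microRNA libraries stood close to each other, with a ratio of 1.03 (0.959 to 1.11) for hsa-miR-590-3p over hsa-miR-199a-3p. With hsa-miR-199a-3p the lower sum was that of the 9 members that reached 1 CPM, at 0.691 (0.641 to 0.745) and 0.598 (0.555 to 0.644). The other 54 summed to 8.86 CPM there, against 8.10 with cel-miR-67 and 8.72 in mock. Their ratios were 1.09 (0.932 to 1.29) and 1.02 (0.865 to 1.20), and with hsa-miR-590-3p 0.824 (0.689 to 0.985) and 0.766 (0.640 to 0.916). The comparisons of both microRNAs share their control libraries. Cardiomyocyte markers also stood lower in both microRNA libraries, as given above, and their part in the histone values was not tested.

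The criterion asked for a difference of 2-fold or more from each control library, on the same side of both. With hsa-miR-590-3p 0 of the 9 compared members met it, where 0.356% of all 13502 genes were higher, 0.23% lower and 0.585% past it in either direction. With hsa-miR-199a-3p 1 of 9 met it, Hist2h3c1 on the lower side, where 2.4% of all genes were higher, 2.34% lower and 4.74% were past it in either direction. By position alone, 7 of the 9 lay below both controls with hsa-miR-590-3p, where 36.6% of all genes did, and 8 of the 9 with hsa-miR-199a-3p, where 41.9% did. There were 0 above both with hsa-miR-590-3p (35.6% of all genes), and 1 with hsa-miR-199a-3p, Hist1h4i (40.2%). The median log2 ratio of the 9 was -0.26 for hsa-miR-590-3p against cel-miR-67 and -0.49 against mock, and -0.46 and -0.77 for hsa-miR-199a-3p. Over all compared genes these medians were -0.00073, -0.0058, -0.0048 and -0.011.

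**Figure D2:**
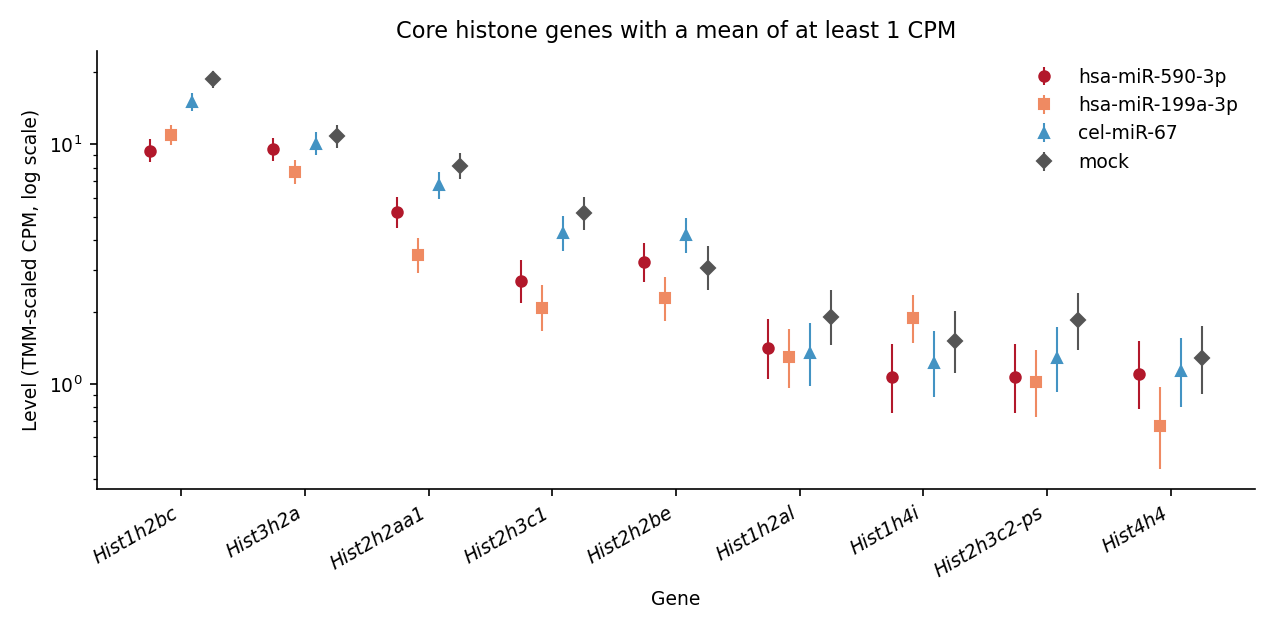
TMM-scaled level in CPM (log axis) of the 9 core histone genes whose mean reached 1 CPM, in each of the 4 libraries; bars are 95% Poisson intervals for counting error. Both microRNA libraries lie below both controls for Hist1h2bc, Hist2h2aa1 and Hist2h3c1, and Hist1h4i is highest with hsa-miR-199a-3p.

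Of the H2B genes, Hist1h2bc (now H2bc4) was the most abundant member of the family. It had 333 reads with hsa-miR-590-3p and 441 with hsa-miR-199a-3p, against 503 with cel-miR-67 and 568 in mock. Both microRNA libraries were below both controls, and mock was the highest. Its ratio was 0.626 (0.544 to 0.721) against cel-miR-67 and 0.504 (0.439 to 0.578) against mock for hsa-miR-590-3p, both short of 2-fold. For hsa-miR-199a-3p it was 0.728 (0.639 to 0.829) and 0.586 (0.516 to 0.665). Hist2h2be (now H2bc21), on a record of 2618 bases, had 114 and 92 reads with hsa-miR-590-3p and with hsa-miR-199a-3p, compared to 140 with cel-miR-67 and 93 in mock. Here the controls themselves differed by a ratio of 1.368 (1.045 to 1.797), cel-miR-67 over mock. The hsa-miR-590-3p library lay between them, and the hsa-miR-199a-3p library lay below both, at 0.546 (0.415 to 0.715) and 0.746 (0.553 to 1.01).

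Of the H2A genes, Hist3h2a (now H2aw), whose promoter stands first above, stood between 7.70 and 10.8 CPM in the 4 libraries. It had 337 reads with hsa-miR-590-3p, 310 with hsa-miR-199a-3p, 337 with cel-miR-67 and 328 in mock. Scaled to depth, hsa-miR-590-3p was at 0.946 (0.811 to 1.10) and 0.883 (0.756 to 1.03) of cel-miR-67 and mock, intervals that hold 1. For hsa-miR-199a-3p the ratios were 0.764 (0.653 to 0.894) and 0.713 (0.609 to 0.835). Hist2h2aa1 (now H2ac18) had 184 and 139 reads with hsa-miR-590-3p and with hsa-miR-199a-3p, compared to 226 with cel-miR-67 and 248 in mock. The hsa-miR-199a-3p library was the lowest, with ratios of 0.511 (0.410 to 0.634) and 0.423 (0.341 to 0.523), just outside the criterion on the cel-miR-67 side. With unique reads it was past the criterion, at 0.414 (0.271 to 0.622) and 0.373 (0.245 to 0.559). The ratios for hsa-miR-590-3p were 0.770 (0.631 to 0.940) and 0.638 (0.524 to 0.775). A near-identical gene, Hist2h2aa2, may share its reads, and the summed reads of both gave 0.525 and 0.428 for hsa-miR-199a-3p. Hist1h2al had 50 and 52 reads with hsa-miR-590-3p and with hsa-miR-199a-3p, compared to 45 with cel-miR-67 and 58 in mock, none of them unique. These reads may be shared between its own records or with other genes, which cannot be told apart here, so its level is uncertain.

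Of the H3 genes, Hist2h3c1 (now H3c14) was past the criterion with hsa-miR-199a-3p. It had 95 reads with hsa-miR-590-3p and 84 with hsa-miR-199a-3p, against 143 with cel-miR-67 and 157 in mock, and both microRNA libraries lay below both controls. Its ratios were 0.488 (0.368 to 0.643) and 0.404 (0.306 to 0.529) for hsa-miR-199a-3p and 0.629 (0.480 to 0.820) and 0.520 (0.399 to 0.675) for hsa-miR-590-3p. Uniquely placed reads numbered 46 and 48 in the microRNA libraries, against 93 with cel-miR-67 and 84 in mock, and with these alone it was past the criterion with hsa-miR-590-3p too, at 0.467 (0.321 to 0.672) and 0.478 (0.326 to 0.693). Scaling by library totals moved the ratio against cel-miR-67 with hsa-miR-199a-3p to a log2 value of -0.94, short of the criterion. Its neighbour Hist2h3c2-ps had 38 and 41 reads with hsa-miR-590-3p and with hsa-miR-199a-3p, compared to 43 with cel-miR-67 and 56 in mock. Together with Hist2h3b these genes had 3.85 and 3.23 CPM in the microRNA libraries, against 5.56 CPM with cel-miR-67 and 7.04 CPM in mock.

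Of the H4 genes, Hist1h4i (now H4c9), whose promoter is shown above, was the compared member higher with hsa-miR-199a-3p than in both controls. It had 38 reads with hsa-miR-590-3p and 76 with hsa-miR-199a-3p, against 41 with cel-miR-67 and 46 in mock. The ratios for hsa-miR-199a-3p were 1.54 (1.04 to 2.31) and 1.25 (0.853 to 1.84), so that the interval against mock holds 1. For hsa-miR-590-3p they were 0.877 (0.549 to 1.40) and 0.710 (0.450 to 1.12), both with 1 inside. With unique reads, 29 and 46 with hsa-miR-590-3p and with hsa-miR-199a-3p against 25 with cel-miR-67 and 34 in mock, the ratio of hsa-miR-199a-3p to mock was 1.04 and that of hsa-miR-590-3p to cel-miR-67 was 1.10, above 1. Hist4h4, the H4 gene outside the large clusters, had 39 and 27 reads with hsa-miR-590-3p and with hsa-miR-199a-3p, compared to 38 with cel-miR-67 and 39 in mock. The hsa-miR-199a-3p library was the lowest, at 0.590 (0.346 to 0.992) and 0.522 (0.308 to 0.875). With unique reads these ratios were 0.621 (0.296 to 1.28) and 0.547 (0.262 to 1.11), intervals that hold 1.

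Sums over a class do not depend on how shared reads were divided among its own copies. They would change if reads were left out, counted more than once or shared with records outside the summed set. The rule for shared reads is not given. With hsa-miR-590-3p H2B had the lowest ratios in total reads, at 16.1 CPM, against 24.3 with cel-miR-67 and 27.0 in mock, with ratios of 0.660 (0.592 to 0.736) and 0.596 (0.535 to 0.664). Hist1h2bc alone held 1845 of the 2918 H2B reads, so the class ratios lean on that gene. The other 14 H2B genes of Hist1 gave 0.638 and 0.610, while Hist2h2be lay between the controls. The order of the classes without Hist1h2bc was not tested. H2A, at 17.4 CPM against 19.3 with cel-miR-67 and 22.2 in mock, had ratios of 0.901 (0.805 to 1.01) and 0.783 (0.701 to 0.875). With hsa-miR-199a-3p H2A stood at 13.7 CPM, with ratios of 0.708 (0.631 to 0.795) and 0.616 (0.549 to 0.690), and H2B at 17.8 CPM, with 0.731 (0.661 to 0.810) and 0.661 (0.597 to 0.731). H3 was at 4.87 CPM with hsa-miR-590-3p and 4.69 CPM with hsa-miR-199a-3p, against 6.61 with cel-miR-67 and 7.73 in mock. With unique reads H3 was the lowest class for hsa-miR-590-3p, at ratios of 0.522 and 0.512, against 0.667 and 0.617 for H2B. In the authors' RPKM the H3 sum with hsa-miR-199a-3p had log2 ratios of only -0.04 and -0.07, whereas unique reads gave ratios of 0.545 and 0.535. H4 was at 3.11 CPM with hsa-miR-590-3p and 4.05 CPM with hsa-miR-199a-3p, against 3.20 CPM with cel-miR-67 and 4.28 CPM in mock, so that the hsa-miR-199a-3p library lay between the controls. Its ratios were 0.973 (0.739 to 1.28) and 0.727 (0.559 to 0.945) for hsa-miR-590-3p, and 1.27 (0.985 to 1.63) and 0.946 (0.747 to 1.20) for hsa-miR-199a-3p. The values nearest 1 turned direction with scaling by totals: for H4 the log2 ratio of hsa-miR-590-3p to cel-miR-67 was then 0.03 and that of hsa-miR-199a-3p to mock 0.03.

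By cluster, the lowest ratios of total reads with hsa-miR-590-3p were those of Hist1, at 17.5 CPM against 24.6 with cel-miR-67 and 29.6 in mock, with 0.710 (0.639 to 0.789) and 0.590 (0.532 to 0.654). With unique reads Hist1 was at 0.690 and 0.550 and Hist2 at 0.654 and 0.711, so that the order depended on the control. Hist2 was the lower with hsa-miR-199a-3p, at 10.03 CPM against 17.3 with cel-miR-67 and 19.3 in mock, with 0.578 (0.508 to 0.658) and 0.520 (0.457 to 0.591), and Hist1 then stood at 0.860 (0.780 to 0.947) and 0.714 (0.650 to 0.785). Compared directly, hsa-miR-590-3p over hsa-miR-199a-3p, the ratio was 0.826 (0.744 to 0.917) for Hist1 and 1.29 (1.13 to 1.48) for Hist2. Hist1h2bc alone held 1845 of the 3189 Hist1 reads, so the Hist1 ratios lean on that gene. Among the other Hist1 genes, ratios with hsa-miR-590-3p were 1.00 and 0.786 for H2A, 0.638 and 0.610 for H2B, and 0.993 and 0.852 for H3 and H4. With hsa-miR-199a-3p they were 0.943 and 0.738, 0.770 and 0.737, and 1.58 and 1.35. The order of the clusters without Hist1h2bc was not tested.

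**Figure D3:**
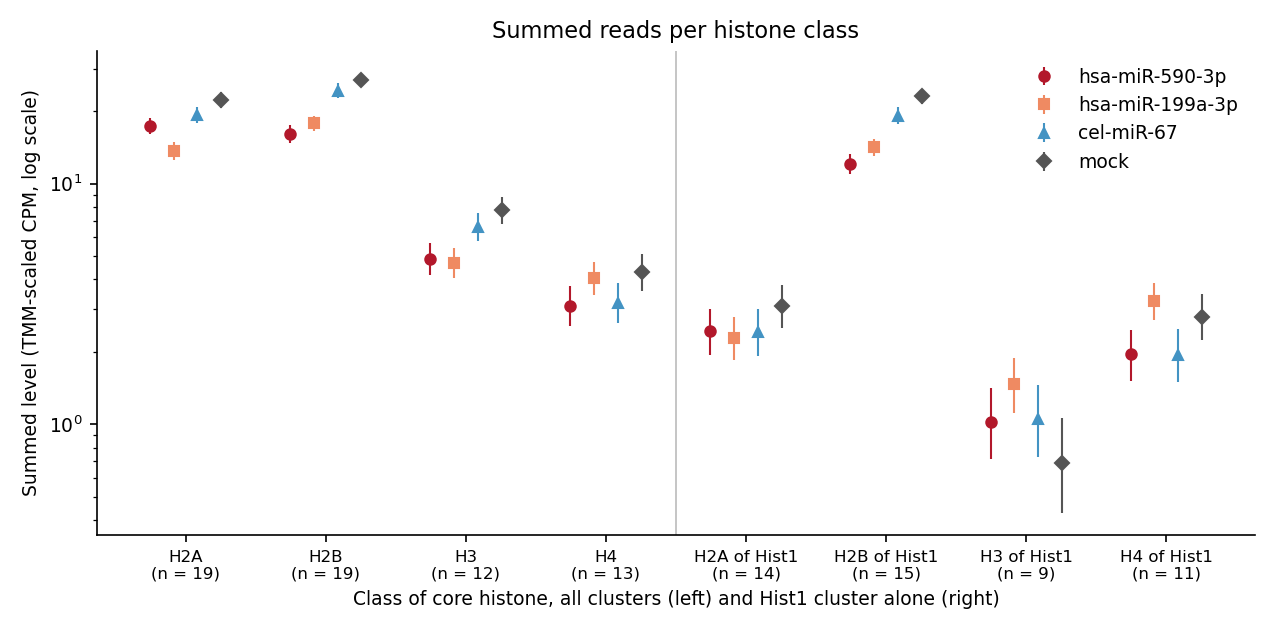
Summed level in CPM (log axis) of each core histone class over all clusters (left of the line) and in the Hist1 cluster alone (right), in the 4 libraries; bars are 95% Poisson intervals for counting error and n is the number of genes. H2B lies at 16.1 and 17.8 CPM in the microRNA libraries, against 24.3 and 27.0 CPM in the controls, and the sums of H3 and of H4 in Hist1 are highest with hsa-miR-199a-3p. There the H3 sum was at 1.40 (0.906 to 2.19) of cel-miR-67 and 2.12 (1.27 to 3.67) of mock. The H4 sum was at 1.67 (1.23 to 2.29) and 1.16 (0.878 to 1.55), so with total reads 1 interval of each class holds 1. With unique reads H3 was at 1.55 (0.618 to 4.23) and 1.44 (0.571 to 3.91), and both intervals hold 1. H4 was then at 1.98 (1.28 to 3.11) and 1.09 (0.754 to 1.58).

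Inside the Hist1 cluster, the summed reads of the H3 and H4 genes stood above both controls in the hsa-miR-199a-3p library, where those of the H2B genes stood below both. Single genes were mixed: of the 20 H3 and H4 genes 9 lay above both controls, 7 between and 4 below both, and of the 15 H2B genes 2 lay above, 7 between and 6 below. All of these but Hist1h4i and Hist1h2bc were under 1 CPM. Of all genes with reads under that minimum, 35.1% lay above both controls and 26.6% below both in that library. The sums were chosen after their values were seen. The 20 H3 and H4 genes of Hist1 had 105 reads with hsa-miR-590-3p, 190 with hsa-miR-199a-3p, 100 with cel-miR-67 and 106 in mock. For hsa-miR-199a-3p the ratio was 1.58 (1.23 to 2.03) against cel-miR-67 and 1.35 (1.06 to 1.73) against mock, and for hsa-miR-590-3p it was 0.993 (0.748 to 1.32) and 0.852 (0.644 to 1.13). Leaving out Hist1h4i, the other 19 had 67, 114, 59 and 60 reads in the same order of libraries, with hsa-miR-199a-3p at 1.43 (1.04 to 1.99) of mock. With unique reads these 19 were at 2.54 (1.36 to 5.03) of cel-miR-67 and 1.27 (0.761 to 2.15) of mock, where the latter interval holds 1. Uniquely placed reads of all 20 numbered 54 with hsa-miR-590-3p, 89 with hsa-miR-199a-3p, 39 with cel-miR-67 and 60 in mock. The ratio of hsa-miR-199a-3p to cel-miR-67 was then 1.89 (1.28 to 2.83), while that to mock was 1.14 (0.809 to 1.603), an interval that holds 1. The 15 H2B genes of Hist1 had 426 and 569 reads with hsa-miR-590-3p and with hsa-miR-199a-3p, compared to 641 with cel-miR-67 and 699 in mock. Without Hist1h2bc the other 14 had 93 and 128 reads in the microRNA libraries, against 138 with cel-miR-67 and 131 in mock. Their ratios for hsa-miR-199a-3p were 0.770 (0.601 to 0.987) and 0.737 (0.573 to 0.948), and 10.8% of these reads were unique. Unique reads numbered 19 with hsa-miR-199a-3p, against 11 with cel-miR-67 and 15 in mock. They gave ratios of 1.43 (0.647 to 3.33) and 0.970 (0.467 to 2.05), intervals that hold 1, so the lower level was not seen with them.

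The 54 members under the minimum of 1 CPM had few reads each and are given as counts. With hsa-miR-590-3p 16 of the 53 that had any read lay below both controls and 14 above, where 26.6% and 28.1% of the 8062 genes with reads under that minimum did. With hsa-miR-199a-3p 12 lay below and 19 above, where 26.6% and 35.1% of those genes did, so the share of members above was near that of all such genes. As examples chosen after their values were seen, Hist3h2ba, an H2B gene of Hist3, had 12 and 26 reads with hsa-miR-590-3p and with hsa-miR-199a-3p, compared to 10 with cel-miR-67 and 4 in mock. Hist1h4m had 2 and 15 reads, against 5 with cel-miR-67 and 4 in mock. Hist1h4h had 12 and 27 reads, against 5 with cel-miR-67 and 25 in mock, so that the controls differed from each other by more than the microRNA libraries did. Hist1h2be had 21 and 30 reads, against 41 with cel-miR-67 and 35 in mock, and Hist1h2ac had 8 and 13, against 19 with cel-miR-67 and 21 in mock. Counting error is wide at such counts: the ratio of Hist3h2ba with hsa-miR-199a-3p to cel-miR-67 was 2.16, with a lower bound of 1.01.

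Between the controls, 8 of the 9 compared members were lower with cel-miR-67 than in mock, where 49.7% of all genes were, and 0 of 9 differed 2-fold, where 0.652% of all genes were higher, 1.33% lower and 1.98% different in either direction. The median log2 ratio of the 9 was -0.27, with values from -0.51 for Hist2h3c2-ps to 0.45 for Hist2h2be. For these 8, each microRNA ratio was therefore higher against cel-miR-67 than against mock. Directly between the microRNAs, hsa-miR-590-3p over hsa-miR-199a-3p, 0 of 9 differed 2-fold, where 2.71% of all genes were higher, 1.87% lower and 4.58% different in either direction. By sign alone 7 of 9 were higher with hsa-miR-590-3p, where 50.4% of all genes were. Hist2h2aa1 was higher with hsa-miR-590-3p, at 1.51 (1.20 to 1.89), and so were Hist2h2be, at 1.41 (1.06 to 1.88), and Hist3h2a, at 1.24 (1.06 to 1.45). Hist1h4i was lower, at 0.570 (0.375 to 0.852).

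Genes that act on histone supply, and genes of S phase, were set beside the family to show where it differs. The lists were chosen with earlier results of these data known. S phase genes stood higher in the same libraries: all 19, among them Pcna, the replication clamp, lay above both controls under each microRNA. Of all genes, 35.6% did so with hsa-miR-590-3p and 40.2% with hsa-miR-199a-3p. The median log2 ratios of the 19 were 0.52 and 0.66 for hsa-miR-590-3p and 0.91 and 0.97 for hsa-miR-199a-3p. Tk1, thymidine kinase, was past the criterion with hsa-miR-590-3p (1.12 and 1.15), where 0.356% of all genes were higher. With hsa-miR-199a-3p 6 of the 19 were past it, where 2.4% of all genes were higher. Furthest from cel-miR-67 there were Tk1 (1.30 and 1.34), Ccna2, cyclin A2 (1.26 and 1.46), and Mcm7, a subunit of the replicative helicase (1.18 and 1.29). Rrm1, the most abundant of the 19, stood at 0.15 and 0.39, and at 0.47 and 0.72. The summed core histone reads lay below both controls in the same libraries. With hsa-miR-199a-3p this did not hold for the 54 members under 1 CPM, as given above.

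Most variants outside the clusters stood above the controls. Of 9, 7 lay above both controls with hsa-miR-590-3p and 7 with hsa-miR-199a-3p, where 35.6% and 40.2% of all genes did. The medians of the 9 were 0.12 and 0.14, and 0.50 and 0.49, and none was past the criterion. H2afx, which encodes H2A.X and can make both stem-loop and polyadenylated mRNA, had log2 ratios of 0.71 and 0.63 with hsa-miR-590-3p and of 1.02 and 0.95 with hsa-miR-199a-3p. Cenpa, the centromeric H3, stood at 0.85 and 0.89, and at 0.90 and 0.94. H3f3a, the most abundant, stood at -0.61 and -0.38, and at -0.08 and 0.15, with 8.09% of its reads unique. The linker histones of Hist1 that were compared, 3 of 6, lay below both controls in both libraries. Of all genes, 36.6% did so with hsa-miR-590-3p and 41.9% with hsa-miR-199a-3p. Hist1h1c, the most abundant, stood at -0.77 and -0.87 with hsa-miR-590-3p and at -0.55 and -0.65 with hsa-miR-199a-3p. Hist1h1e was past the criterion under both, with a log2 ratio to cel-miR-67 of -1.64 for hsa-miR-590-3p and of -2.05 for hsa-miR-199a-3p, and Hist1h1d with hsa-miR-590-3p, at -1.09 and -1.21.

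Genes for the transcription of histone genes had medians of 0.19 and 0.31 with hsa-miR-590-3p and of 0.41 and 0.42 with hsa-miR-199a-3p, over 6 genes. With hsa-miR-199a-3p Ccne1, the cyclin E1 that drives the histone activator Npat, was past the criterion at 1.32 and 1.47. Pou2f1, the octamer-binding factor, was past it on the lower side at -1.17 and -1.20, although 0% of its reads were unique. Npat itself stood at 0.12 and 0.26 with hsa-miR-590-3p and at -0.43 and -0.29 with hsa-miR-199a-3p, and Cdk2, the most abundant, at 0.27 and 0.36, and at 0.57 and 0.67. Of 15 genes for histone mRNA 3′ end formation and turnover, 14 were compared and none was past the criterion. Their medians were 0.09 and 0.08, and 0.05 and 0.13. Slbp, which binds the stem-loop, stood at 0.19 and 0.33, and at 0.48 and 0.62, and Sympk, a scaffold of the cleavage complex and the most abundant, at -0.30 and -0.10, and at -0.07 and 0.13. Npat and Slbp are named for their roles, outside the rule for named genes. Of 20 histone chaperone and acetylation genes, 19 were compared, with medians of 0.17 and 0.16, and of 0.25 and 0.19. With hsa-miR-199a-3p Asf1b (1.08 and 1.29) and Chaf1b (1.10 and 1.46), chaperones that deliver new H3 and H4 to replicating DNA, were past the criterion, and Rbbp4, the most abundant, stood at 0.36 and 0.31.

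**Figure D4:**
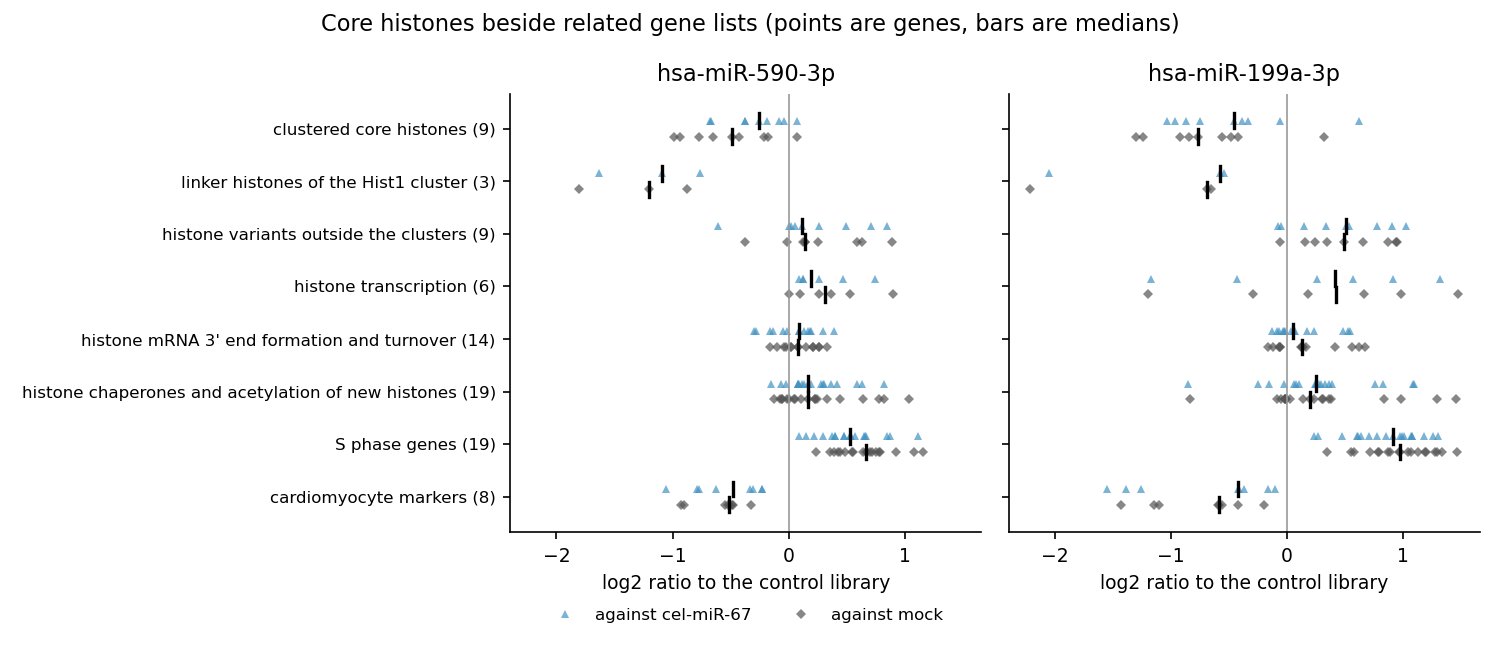
Log2 ratio of each microRNA library to cel-miR-67 (triangles) and to mock (diamonds) for the compared core histone genes and for related gene lists, with the number of compared genes in brackets; points are genes and bars are medians. Clustered core histones, linker histones and cardiomyocyte markers lie mostly left of 0, and all 19 S phase genes lie to the right.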

How the data were processed

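Per the file headers, the deposited table of each library lists RefSeq transcript records with their length, total read count, unique read count and RPKM, and the authors' RPKM equals total reads per kilobase scaled to the library sum. CASAVA 1.8 and mm8 are named, without a role, in the submitters' processing notes; the mapping program and the rule for shared reads are not given in the sources used here. Current symbols came from RefSeq (GRCm38.p6) by accession for 27926 records (77.4%), members kept the symbol of the files, and records were added up per gene. TMM factors came from edgeR 4.0.16 under R 4.3.3 and served for scaling alone, since 1 library per condition leaves 0 residual degrees of freedom. Log2 ratios used a prior count of 0.5, ratios with intervals the counts themselves (exact conditional binomial, Clopper-Pearson, 95%). Ratios are given against cel-miR-67 first and mock second. Calculations used Python 3.11.15, numpy 2.4.6, pandas 2.3.3, scipy 1.17.1 and matplotlib 3.10.9, and were tested on simulated data.

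Members named singly were those past the criterion whose highest library had 20 reads or more, the 2 most abundant of each class and the compared members of Hist2, Hist3 and Hist4; from each gene list, up to 4 genes past the criterion and the most abundant. The members and lists were chosen with earlier results of these data known. Alternatives were scaling by totals, median-of-ratios factors, unique reads, other filters, a prior count of 2, the authors' RPKM with a pseudocount of 0.01, single records and other uses of the controls.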

Additional observations from a re-analysis of the deposited data

Results flagged for a closer look

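Hist1h4i lay below both controls with hsa-miR-590-3p and above both with hsa-miR-199a-3p, with log2 ratios against cel-miR-67 of -0.19 and 0.62. It was singled out because its level moved in opposite directions from the shared controls in the microRNA libraries. With 1 library each the difference was not tested; the direct ratio of hsa-miR-590-3p over hsa-miR-199a-3p was 0.570 (0.375 to 0.852, counting error only) with total reads and 0.719 (0.436 to 1.17) with uniquely placed reads. With unique reads the hsa-miR-590-3p library lay above cel-miR-67, at a log2 ratio of 0.13, so its direction against cel-miR-67 differs between total and unique reads.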

How the results depend on the processing

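The lower summed level of the family under each microRNA kept its direction under every scaling and counting alternative run. Values that left the counting interval of the log2 ratio were, for hsa-miR-199a-3p, -0.20 against cel-miR-67 and -0.42 against mock with the authors' RPKM and -0.49 against mock with scaling by totals, and, for hsa-miR-590-3p, -0.26 and -0.41 without Hist1h2bc, an alternative added after seeing the data. With RPKM, hsa-miR-590-3p over hsa-miR-199a-3p was -0.10, against 0.04 with counts; the cause was not tested. Hist2h3c1 was the 1 compared member past the criterion on the lower side with hsa-miR-199a-3p; this count was 0 with scaling by totals, with RPKM and at a minimum mean of 5 CPM, where 3 members remained compared, and 2 with unique reads (Hist2h3c1 and Hist2h2aa1, of 6 members compared) and against the mean of both controls. With hsa-miR-590-3p unique reads gave 1 lower. Without a filter on low counts the 62 members with any read entered: with hsa-miR-590-3p 6 then stood higher and 7 lower, with hsa-miR-199a-3p 8 and 4, 13 and 15 for cel-miR-67 over mock, and 5 and 13 for hsa-miR-590-3p over hsa-miR-199a-3p, where the last 2 comparisons use a single ratio. Of all 21564 genes with reads, 4.11% were higher and 3.03% lower, 7.56% and 4.74%, 8.06% and 7.54%, and 8.505% and 10.7% in the same order. Of 468 other values for single members and class sums, 458 stayed inside their counting interval and 10 left it, 6 of these with unique reads and 4 with the authors' RPKM. Scaling by totals moved the median log2 ratio of all genes to 0.10 for hsa-miR-199a-3p against mock, so the family's -0.49 stands against that median. No paired analysis was possible because each condition has 1 library.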

Other observations

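Linker histone genes of the Hist1 cluster with few reads, chosen after their values were seen, were also highest with hsa-miR-199a-3p. Hist1h1b had 5 and 24 reads with hsa-miR-590-3p and with hsa-miR-199a-3p, compared to 4 with cel-miR-67 and 5 in mock, all of them unique. Hist1h1a had 8 and 22 reads, against 9 with cel-miR-67 and 6 in mock, also all unique. Both are below the minimum of 1 CPM, and Hist1h1t had 0 reads in all 4 libraries.

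The make-up of the core histone reads also differed between libraries. H3 and H4 genes of Hist1 made up 7.17% of the family's reads with hsa-miR-590-3p and 11.7% with hsa-miR-199a-3p, against 5.60% with cel-miR-67 and 5.71% in mock. Of the reads of these genes 48.3% were unique. Counting unique reads alone, they had 54 of 937, 89 of 1014, 39 of 1169 and 60 of 1176 in the same order of libraries. The controls were then less alike than with total reads. Hist2h2aa1 and Hist2h2aa2 together made up 12.7% and 8.83% in the microRNA libraries, against 12.6% with cel-miR-67 and 13.6% in mock.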
